A study of Mus musculus with 4 samples.

Results

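The genes described here are 10 enzymes of fatty acid synthesis, elongation and desaturation in the mouse optic nerve, chosen by name: Acly, Acaca, Fasn, Scd1, Scd2, Fads1, Fads2, Elovl5, Elovl6 and Elovl7. They are 10 of the 55401 genes listed, and all 10 were among the 16751 genes that passed the filter on low counts. RNA from optic nerves was sequenced in 2 libraries of genotype Dor WT, the controls, and 2 of genotype Dor cKO, a conditional knockout. Dor is a synonym of Trp53inp2, which encodes a nuclear protein that also acts in autophagy. No treatment or time point is labelled for either group. The sources used here do not give age, sex, strain, the number of animals in a library or the Cre driver, so the cells in which the gene was deleted are not named. A marking that could be an age stands in the names of the Dor WT tables alone, so age and genotype cannot be told apart. The title of the series places it in alpha-ketoglutarate metabolism of mature oligodendrocytes, in myelination and in the decline of remyelination with age.

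The optic nerve is a bundle of retinal axons that oligodendrocytes wrap in myelin, a membrane whose dry mass is mostly lipid. Its fatty acids are partly made within the nerve. Acly makes cytosolic acetyl-CoA from citrate, Acaca carboxylates it to malonyl-CoA, and Fasn joins these units into palmitate. Elovl enzymes catalyse the first step of adding a further carbon pair in the endoplasmic reticulum, Scd enzymes place the first double bond in saturated chains, and Fads enzymes insert further double bonds into polyunsaturated chains. Very long chains enter the galactolipids and sphingomyelin of myelin.

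The pathway did not move as a block. Elovl6 and Elovl7, which lengthen mainly saturated chains, fell in Dor cKO to levels 1.50-fold and 1.75-fold lower than in Dor WT. The other 8 genes lay within 1.09-fold of Dor WT in either direction. Of these, Acly, Acaca, Scd2 and Fads2 were lower and Scd1 and Fads1 were higher past the threshold, while Fasn and Elovl5 did not pass it. Counted by edgeR's quasi-likelihood test at an adjusted p under 0.05, 6 of the 10 genes were lower, 2 were higher and 2 stayed below the threshold. Their median log2 fold change was -0.09. Over all tested genes 27.7% passed this threshold, 13.4% lower and 14.3% higher, and the median log2 fold change was -0.0036. The median size of a change over all tested genes was 0.176 on the log2 scale, and 8 of the 10 genes had smaller values. These 8 lay within 0.13 of no change, as did 39.5% of all tested genes. In a tissue made of many cell types, fewer cells of a type and less RNA per cell cannot be told apart.

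The Dor WT libraries held 17263830 and 21595832 expected counts in all and the Dor cKO libraries 21162594 and 20928332, and the lowest count of any of the 10 genes was 954. Trp53inp2 was 1.28-fold lower in Dor cKO (log2 fold change -0.36, SE 0.04, edgeR adjusted p = 2.73e-08), at 138 and 134 CPM against 105 and 107 CPM. CPM is the count of a gene relative to the scaled total of its library. Xist was at 574 and 574 CPM in Dor WT libraries against 262 and 273 CPM in those of Dor cKO, and the Y-linked Ddx3y at 38.4 and 39.8 against 60.1 and 57.9 CPM. Every library thus held RNA of both sexes, in proportions that differed between the groups, and the part of this in the results was not tested. The libraries of a group were counted as separate samples because they are labelled so. Their counts differed by more than counting noise, with a chi-square per degree of freedom of 2.34 for Dor WT and 1.92 for Dor cKO, a spread that library preparation alone can also give. Nothing in the labels says that they came from separate animals, so p-values measure only the spread between these samples, which may be technical.

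The levels per length, in TPM, spanned more than an order of magnitude. Scd2 stood highest, at 841 and 839 TPM in Dor WT libraries against 779 and 783 TPM in those of Dor cKO, and alone held 42.4%, 41.9%, 41.0% and 41.4% of the summed TPM of the 10 genes in the 4 libraries. Fads2 came next, at 339.8 and 339 TPM in Dor WT libraries against 318 and 317 TPM in those of Dor cKO, followed by Fads1 and Scd1. Fasn lay at 114 to 129 TPM. Acly lay above Elovl5 in Dor WT, at 105.7 and 102.9 against 92.4 and 97.95 TPM, and below it in Dor cKO, at 95.1 and 90.5 against 100.2 and 103 TPM. Acaca and Elovl6 overlapped in Dor WT at 42.1 to 42.7 TPM, while in Dor cKO Elovl6 lay below Acaca. Elovl7 was the lowest of the 10 in every library. Together the 10 genes held 0.199% ± 0.0014 of all TPM in Dor WT and 0.190% ± 0.00054 in Dor cKO (SD, n = 2 each). The exact two-sided permutation test gave p = 0.333 for this share, the smallest p that 2 against 2 libraries allow. CPM ranges of the groups did not overlap for 9 of the 10 genes, against 60.8% of all tested genes. Fasn was the exception.

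**Figure D1:**
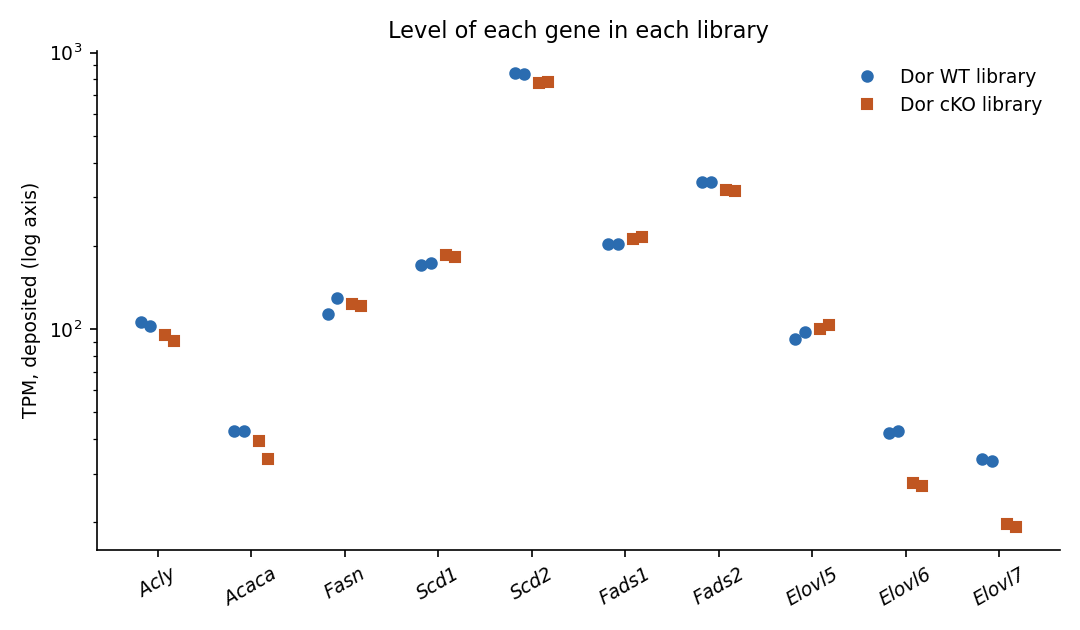
TPM of each of the 10 genes on a log axis, with 1 point per library, Dor WT and Dor cKO in separate colours. Scd2 lies at 779 TPM or above and Elovl7 at 33.9 TPM or below. The groups separate widely for Elovl6 and Elovl7 and lie close together for the other genes.

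The entry into the pathway was examined first. Acly (ENSMUSG00000020917; GRCm38 chromosome 11, 100476353 to 100528000, minus strand) was at 252.4 and 250.002 CPM in Dor WT libraries against 230.7 and 230.8 CPM in those of Dor cKO. Both Dor cKO libraries lay below both Dor WT libraries, and the gene fell by 0.12 in log2 units (edgeR SE 0.03, adjusted p = 0.00116). Acaca (ENSMUSG00000020532; chromosome 11, 84129672 to 84401651, plus strand), the cytosolic acetyl-CoA carboxylase and the committed step of synthesis, had 144 and 140.1 CPM in Dor WT libraries against 133 and 127 CPM in those of Dor cKO. Its log2 fold change was -0.13 (edgeR SE 0.04, adjusted p = 0.0111). The Acaca call did not hold without Dor cKO replicate 2, where the log2 fold change was -0.09 and the edgeR adjusted p was 0.213. It was also lost without Dor WT replicate 1, at -0.11 and an adjusted p of 0.0689. With limma on log2(TPM + 1) it was at -0.22 with an adjusted p of 0.203. The authors' length for Acaca ranged from 5020 to 5645 bases across libraries.

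Fasn, the multifunctional fatty acid synthase (ENSMUSG00000025153; chromosome 11, 120805846 to 120824547, minus strand), had 562 and 572 CPM in Dor WT libraries against 567 and 569.97 CPM in those of Dor cKO. The Dor cKO libraries lay between the Dor WT libraries. The log2 fold change was 0.00 with a 95% confidence interval of -0.04 to 0.04 (edgeR adjusted p = 0.916), an interval that covers only the spread between these libraries. In TPM the 2 Dor WT libraries were farther apart, at 114 and 129. The authors' length for Fasn ranged from 6679 to 7414 bases across libraries. TPM is divided by the effective length, a separate value.

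The elongases showed the widest differences. Elovl6 (ENSMUSG00000041220; chromosome 3, 129532355 to 129638495, plus strand), which extends palmitate to stearate, had 146 and 145 CPM in Dor WT libraries against 93.9 and 99.6 CPM in those of Dor cKO. The groups lay far apart relative to the spread within them, and Elovl6 fell by 0.59 in log2 units (edgeR SE 0.04, adjusted p = 1.56e-12). Of all tested genes, 6.03% had a log2 fold change at or below that of Elovl6. Elovl7 (ENSMUSG00000021696; chromosome 13, 108214404 to 108285683, plus strand), which extends longer saturated chains, had 81.3 and 82.5 CPM in Dor WT libraries against 47.8 and 45.9 CPM in those of Dor cKO. It fell by 0.81 in log2 units (edgeR SE 0.06, adjusted p = 1.51e-12), and 3.18% of all tested genes lay at or below this value. Elovl5 (ENSMUSG00000032349; chromosome 9, 77917364 to 77984519, plus strand), which extends polyunsaturated chains, did not pass the test. It had 161 and 170.2 CPM in Dor WT libraries against 175 and 177 CPM in those of Dor cKO. The log2 fold change was 0.09 with a 95% confidence interval of 0.02 to 0.16 (edgeR adjusted p = 0.0546). This interval is for 1 gene and lacks the adjustment over all tested genes that the adjusted p carries. The spread of Elovl5 lay mainly between the Dor WT libraries, and the value depended on them. Without Dor WT replicate 1 it was 0.05 with an edgeR adjusted p of 0.401, and without Dor WT replicate 2 it was 0.13 with an adjusted p of 0.00962. Without Dor cKO replicate 1 or 2 it was 0.10 and 0.08, with adjusted p of 0.141 and 0.225.

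**Figure D2:**
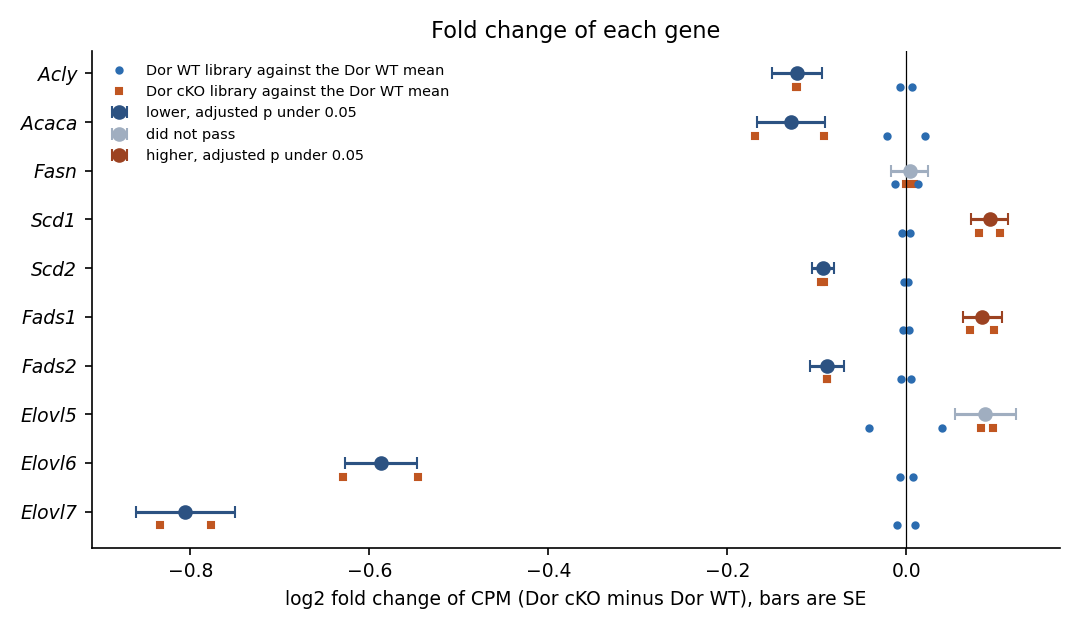
Log2 fold change of each gene, Dor cKO against Dor WT, with bars of 1 SE from edgeR and a point for each library against the Dor WT mean. Elovl7 at -0.81 and Elovl6 at -0.59 stand apart from the other 8 genes, which lie between -0.13 and 0.09.

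The promoters of these 3 elongases and of Fasn are shown because Elovl6 and Elovl7 fell while Elovl5 and Fasn did not pass the test. Each sequence is the 250 bases before the gene's start in RefSeq on GRCm38.p6, written 5′ to 3′ on the gene's strand, with the letters of the motifs named below them in capitals (CCAAT reads ATTGG, and GGGCGG reads CCGCCC, where the match is on the other strand). Elovl6 is chr3:129532136-129532385, Elovl7 chr13:108214154-108214403 and Elovl5 chr9:77917115-77917364, all on the plus strand, and Fasn is chr11:120824548-120824797 on the minus strand.
Elovl6: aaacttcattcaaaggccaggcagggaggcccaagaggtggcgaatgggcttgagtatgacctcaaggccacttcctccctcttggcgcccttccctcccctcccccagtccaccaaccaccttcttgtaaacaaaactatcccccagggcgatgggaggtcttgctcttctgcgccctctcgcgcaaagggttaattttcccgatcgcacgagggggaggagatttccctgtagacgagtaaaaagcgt
Elovl7: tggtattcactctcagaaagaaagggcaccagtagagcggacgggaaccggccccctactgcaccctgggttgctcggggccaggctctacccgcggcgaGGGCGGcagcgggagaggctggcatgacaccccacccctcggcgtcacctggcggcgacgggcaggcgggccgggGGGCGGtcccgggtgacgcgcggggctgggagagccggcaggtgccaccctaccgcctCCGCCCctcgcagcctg
Elovl5: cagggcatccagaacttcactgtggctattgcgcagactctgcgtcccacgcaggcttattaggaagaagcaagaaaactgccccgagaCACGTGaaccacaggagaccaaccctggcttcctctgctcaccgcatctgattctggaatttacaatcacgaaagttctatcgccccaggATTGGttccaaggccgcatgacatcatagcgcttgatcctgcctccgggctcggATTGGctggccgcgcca
Fasn: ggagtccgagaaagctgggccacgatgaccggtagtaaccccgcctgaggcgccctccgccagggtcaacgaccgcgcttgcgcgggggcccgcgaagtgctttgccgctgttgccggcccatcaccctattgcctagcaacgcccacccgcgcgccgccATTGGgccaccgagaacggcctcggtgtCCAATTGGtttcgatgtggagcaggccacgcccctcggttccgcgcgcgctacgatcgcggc

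Entries for 7 of the 10 genes were found. Letters searched on both strands were TCACNCCAC (a sterol regulatory element), CCAAT (bound by NF-Y), CACGTG (an E-box), ACAAAG (a Sox motif), CTGGNAC (a MYRF motif) and GGGCGG (a GC box). Of 32851 promoter windows of the same length, 1.05% held the first, 33.9% CCAAT, 6.02% CACGTG, 16.5% ACAAAG, 16.1% CTGGNAC and 32.7% GGGCGG. The Elovl6 window held no match, and the Elovl7 window held 3 GC boxes. Elovl5 had 2 CCAAT matches and 1 CACGTG, and Fasn had 3 CCAAT matches, 2 of which overlap on opposite strands as CCAATTGG. Acly had 4 GC boxes, Fads2 had 1, and the Acaca window had none. RefSeq starts differ from the annotated gene ends given above for some genes. The Acaca window and most of the Fads2 window lie inside the annotated gene. The Elovl6 window runs past the annotated start, and the Elovl5 window ends on it. With no match in its window, Elovl6 could share none of the searched letters with Elovl7 or any other gene. Windows of Elovl1 and Elovl4 were not searched. A match is a description of letters and not a binding site.

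The stearoyl-CoA desaturases moved in opposite directions. Scd2 (ENSMUSG00000025203; chromosome 19, 44293674 to 44306864, plus strand), the main form in mouse brain, had 2980.3 and 2970.6 CPM in Dor WT libraries against 2786 and 2793 CPM in those of Dor cKO. It fell by 0.09 in log2 units (edgeR SE 0.01, adjusted p = 5.51e-07), a small difference that was wide beside the gap within each group. Scd1 (ENSMUSG00000037071; chromosome 19, 44394455 to 44407879, minus strand), the main form in liver, had 531 and 534 CPM in Dor WT libraries against 573 and 564 CPM in those of Dor cKO. It rose by 0.09 (edgeR SE 0.02, adjusted p = 0.000824). The ratio of Scd1 to Scd2 in TPM was 0.202 and 0.206 in Dor WT against 0.238 and 0.233 in Dor cKO, higher in both Dor cKO libraries. Their near copies Scd3 and Scd4, in the same 204.6 kb cluster, stayed under 1 CPM in every library, with edgeR adjusted p of 0.361 and 0.881. RSEM's posterior SD of the Scd1 and Scd2 counts was at most 0.99 counts, against counts of 9227 or more.

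The front-end desaturases, neighbours on chromosome 19, also moved in opposite directions. Fads2 (ENSMUSG00000024665; 10062765 to 10101746, minus strand), which begins the conversion of linoleic and alpha-linolenic acid, had 675 and 669.8 CPM in Dor WT libraries against 633 and 632 CPM in those of Dor cKO. It fell by 0.09 in log2 units (edgeR SE 0.02, adjusted p = 0.000699). Fads1 (ENSMUSG00000010663; 10182888 to 10196877, plus strand), which acts after Fads2 and an elongation step, had 443 and 440.3 CPM in Dor WT libraries against 464 and 472 CPM in those of Dor cKO. It rose by 0.09 (edgeR SE 0.02, adjusted p = 0.00383), a call that was lost without Dor cKO replicate 2, at 0.07 and an adjusted p of 0.0957. Their annotated starts are 81.14 kb apart, and the genes point away from each other. The ratio of Fads1 to Fads2 in TPM was 0.597 and 0.601 in Dor WT against 0.666 and 0.677 in Dor cKO.

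Ratios within a library do not depend on the scaling between libraries. Of 6 ratios computed, 5 had groups that did not overlap, each with an exact two-sided permutation p of 0.333, the smallest that 4 libraries allow, and a Benjamini-Hochberg value of 0.4. The widest was Elovl5 to Elovl6, at 2.20 and 2.29 in Dor WT against 3.62 and 3.80 in Dor cKO, a log2 difference of 0.73. Elovl7 to Elovl6 was 0.804 and 0.782 in Dor WT against 0.715 and 0.708 in Dor cKO, so Elovl7 was further down than Elovl6 by 0.16 on the log2 scale of TPM. Fasn to Acaca was 2.67 and 3.03 against 3.14 and 3.59. The ratio of Acaca to Acly overlapped between groups, at 0.404 and 0.415 against 0.413 and 0.373 (exact permutation p = 0.667). TPM ratios of Acaca and Fasn also carry their effective lengths.

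Within the Elovl family the make-up shifted. Elovl6 and Elovl7 together held 23.4% and 23.3% of the family's summed TPM in Dor WT, against 17.4% and 16.8% in Dor cKO. Elovl5 held 28.5% and 29.9% in Dor WT against 36.6% and 37.5% in Dor cKO. A share also rises when other members fall, and Elovl5 itself did not pass the test, at 0.09 (edgeR adjusted p = 0.0546). Elovl1, which makes very long saturated chains and is the most abundant member, held 42.2% and 40.3% in Dor WT and 40.4% in each Dor cKO library. Elovl1 itself also fell, by 0.24 in log2 units (edgeR SE 0.05, adjusted p = 0.000165). Elovl4, which extends chains beyond those of Elovl1, fell by 0.57 (edgeR SE 0.09, adjusted p = 5.84e-06).

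**Figure D3:**
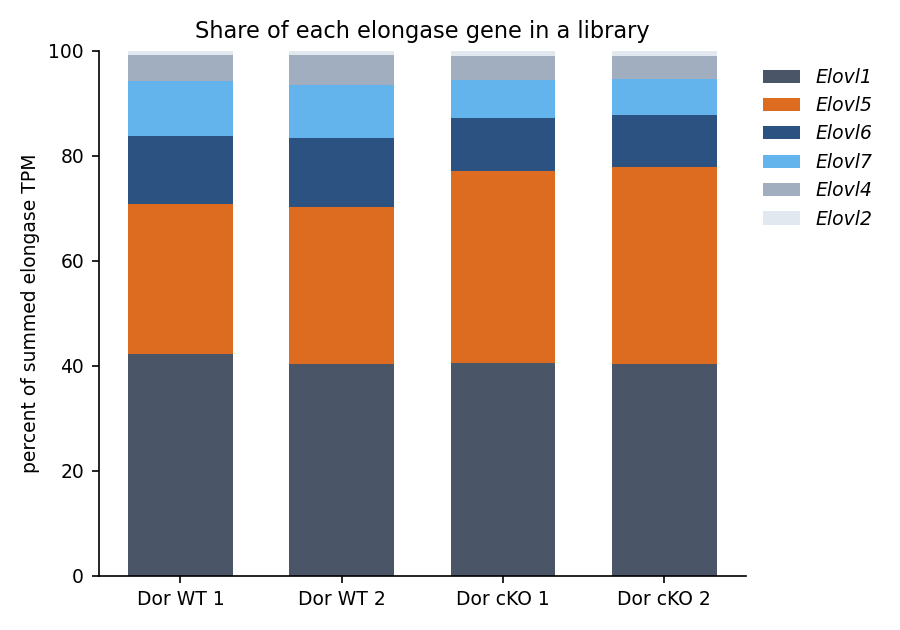
Share of the summed TPM of the Elovl genes held by each, in percent, with 1 stacked bar per library. Elovl6 and Elovl7 take a smaller part of the Dor cKO bars and Elovl5 a larger part, while the part of Elovl1 is close to 40% in all 4.

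Genes of 6 other lists around the pathway were described in the same way. Of 107 listed genes 101 were tested, and 21 were lower and 26 higher past the threshold. Over all tested genes 13.4% were lower and 14.3% higher. Among the other elongases and desaturases, 3 of 8 tested genes were lower and 5 did not pass, with a median of -0.24, where 13.4% of all tested genes were lower. The third, beside Elovl1 and Elovl4, was Degs1, the dihydroceramide desaturase, which fell by 0.23 (edgeR SE 0.04, adjusted p = 8.79e-06). The remaining steps of the elongation cycle and the electron donors of the desaturases gave 4 lower and 3 higher of 12 tested, beside 13.4% and 14.3% of all tested genes. Hsd17b12, the ketoacyl-CoA reductase of the cycle, fell by 0.32 (edgeR SE 0.04, adjusted p = 1.72e-07), and the desaturase electron donor Cyb5a fell by 0.25 (edgeR SE 0.05, adjusted p = 0.000414). Tecr, the enoyl-CoA reductase, was at -0.11 (edgeR adjusted p = 0.00679), and at -0.10 with an adjusted p of 0.0767 without Dor cKO replicate 2. Cyb5r3, which reduces cytochrome b5, rose by 0.13 (edgeR SE 0.03, adjusted p = 0.000386). The remaining higher genes of this list, named after their values were seen, were Hacd2 and Hacd4. Hacd2 rose by 0.32 (edgeR adjusted p = 5.56e-05) and Hacd4 by 0.17 (edgeR adjusted p = 0.0179). Hacd4 was not called with DESeq2 (adjusted p = 0.0633).

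Genes that supply acetyl-CoA, malonyl-CoA and NADPH gave 5 lower and 2 higher of 17 tested, with a median of -0.00, beside 13.4% lower and 14.3% higher among all tested genes. The count of higher genes was no larger than that share of all genes. Idh1, the cytosolic NADP-dependent isocitrate dehydrogenase, which makes alpha-ketoglutarate and NADPH, had 247 and 235 CPM in Dor WT libraries against 182 and 176 CPM in those of Dor cKO. It fell by 0.43 in log2 units (edgeR SE 0.03, adjusted p = 9.02e-12). Malic enzyme Me1 fell by 0.22 (edgeR SE 0.05, adjusted p = 0.000391), and Acss2, which activates acetate in the cytosol, fell by 0.31 (edgeR SE 0.05, adjusted p = 3.85e-05). Pgd, of the pentose phosphate pathway, rose by 0.25 (edgeR SE 0.03, adjusted p = 5.97e-07).

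Regulators of fatty acid synthesis gave 9 higher and 2 lower of 21 tested, with a median of 0.08, where all tested genes had 14.3% higher and 13.4% lower. The count of lower genes was below that share. The lower genes, named after their values were seen, were Insig1 and Mbtps2. Insig1 was at -0.16 (edgeR adjusted p = 0.00807) and Mbtps2, which like Mbtps1 is listed as a regulator, at -0.28 (edgeR adjusted p = 0.016). Neither call held with the length and GC trend removed, at -0.09 (edgeR adjusted p = 0.175) for Insig1 and -0.20 (edgeR adjusted p = 0.109) for Mbtps2. With a library left out, Insig1 ranged from -0.19 to -0.12 and Mbtps2 from -0.34 to -0.23. Srebf1, which encodes the transcription factor that drives synthesis genes, had 149 and 150.0 CPM in Dor WT libraries against 172 and 171 CPM in those of Dor cKO and rose by 0.20 (edgeR SE 0.03, adjusted p = 2.85e-05). Mid1ip1, an activator of acetyl-CoA carboxylase, rose by 0.33 (edgeR SE 0.03, adjusted p = 5.88e-10), from 182 and 179 to 228 and 226 CPM. Its paralogue Thrsp, named after its values were seen, rose by 0.67 (edgeR SE 0.06, adjusted p = 4.42e-10), from 44.8 and 43.4 to 67.8 and 72.2 CPM. Mbtps1, a protease that processes SREBP proteins, rose by 0.22 (edgeR SE 0.03, adjusted p = 4.80e-07), and the nuclear receptor gene Rxra rose by 0.22 (edgeR SE 0.04, adjusted p = 0.000208).

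Acyl-CoA synthetases, uptake and binding genes gave 6 lower and 3 higher of 18 tested, with a median of -0.08. The shares over all tested genes were 13.4% lower and 14.3% higher, and the count of higher genes was close to that share. The fatty acid binding protein genes Fabp5 and Fabp7 fell by 0.45 (edgeR SE 0.03, adjusted p = 6.71e-12) and 0.30 (edgeR SE 0.03, adjusted p = 1.11e-08). Mfsd2a, a transporter of lysophosphatidylcholine that carries polyunsaturated chains, was also named after its values were seen. It fell by 0.89 (edgeR SE 0.10, adjusted p = 1.92e-08), from 31.9 and 33.1 to 19.6 and 15.6 CPM. Slc27a1, a fatty acid transport protein, rose by 0.21 (edgeR SE 0.04, adjusted p = 0.000227). Dbi, the acyl-CoA binding protein, was at 0.06 (edgeR adjusted p = 0.0382), and this call was lost when any 1 library was left out, with adjusted p from 0.0562 to 0.317.

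**Figure D4:**
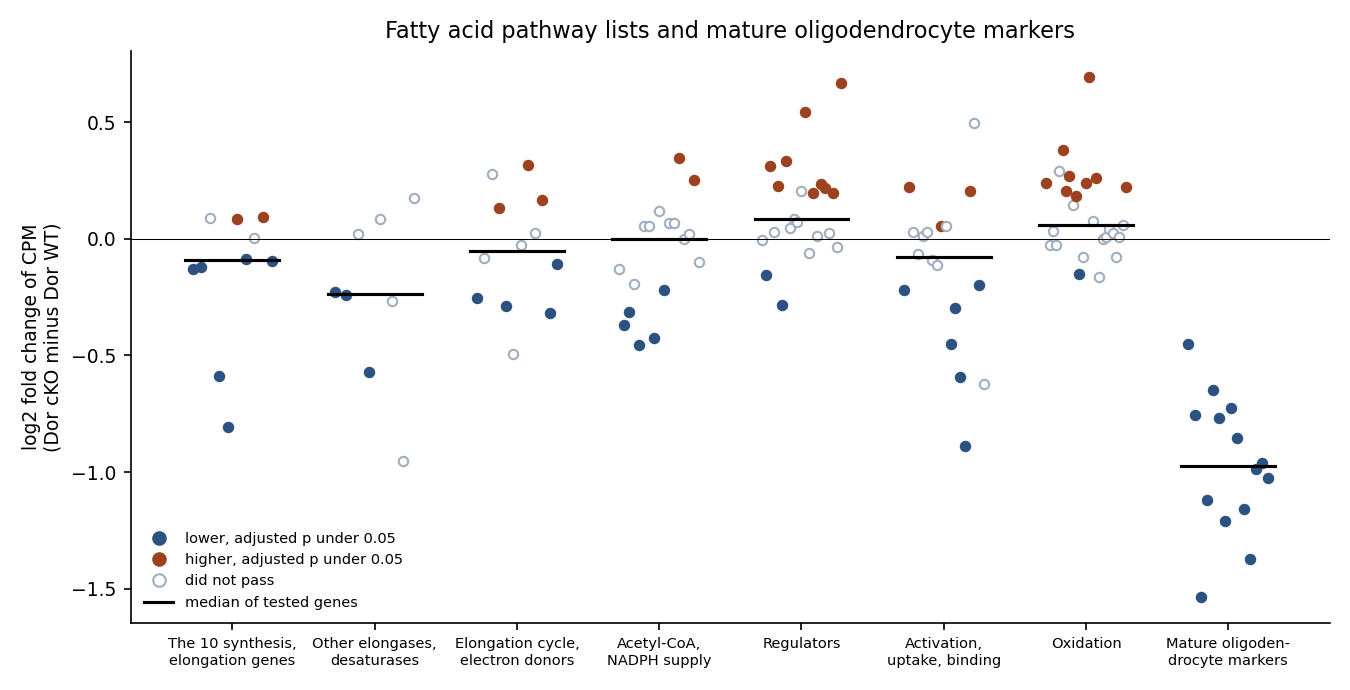
Log2 fold change, Dor cKO against Dor WT, of every tested gene in the 10-gene set, in each of the 6 other pathway lists and in the mature oligodendrocyte markers, with 1 point per gene. The pathway lists scatter around 0 with genes on both sides, while all 14 oligodendrocyte markers lie between -1.53 and -0.45.

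Markers of cell types moved in the same comparison, where 13.4% of all tested genes were lower and 14.3% higher past the threshold. All 14 mature oligodendrocyte markers were lower, from -1.53 to -0.45 with a median of -0.98, and their summed level was 31733 and 31618 CPM in Dor WT libraries against 18239 and 18164 CPM in those of Dor cKO. The most abundant, Mbp, fell by 0.73 on the log2 scale. The changes of Elovl6 and Elovl7 lay within the range of these markers, and those of the other 8 genes lay outside it. Summed TPM of the 10 genes was 7.87% and 8.03% of that of the oligodendrocyte markers in Dor WT and 13.3% in each Dor cKO library. Of 7 markers listed for precursors 6 were lower, with a median of -0.60, but they were not alike. Bcas1 and Gpr17, which are known from committed and newly forming oligodendrocytes, were at -1.11 and -1.18, and Vcan and Lhfpl3 at -0.60 each. Pdgfra and Ptprz1, markers of precursors, were at -0.07 each with edgeR adjusted p of 0.044 and 0.0416, and Cspg4 was at -0.11 and did not pass (adjusted p = 0.171). The Pdgfra and Ptprz1 calls were each lost without Dor WT replicate 1, Dor cKO replicate 1 or Dor cKO replicate 2, with adjusted p of 0.175 to 0.363 for Pdgfra and 0.108 to 0.294 for Ptprz1. Ptprz1 turned to 0.08 (edgeR adjusted p = 0.0142) with the length and GC trend removed. Genes of this list other than Bcas1 were named after their values were seen. All 8 markers of fibroblasts and meninges were higher, with a median of 0.32, Igf2 at 0.45 and summed levels of 10249 and 10263 CPM against 13162 and 13158 CPM. Astrocyte markers were higher in 7 and lower in 1 of 8, with a median of 0.20 and Gfap at 0.10. Microglial markers were higher in 4 and lower in 1 of 8, with Csf1r at 0.34, and endothelial markers higher in 4 of 7, with Cdh5 at 0.41. With limma on log2(TPM + 1) Cdh5 was still called (adjusted p = 0.0204). The other endothelial calls, Flt1, Tek and Slco1a4, named after their values were seen, were lost there, with limma adjusted p of 0.177 to 0.31. The part of these shifts in the values of the 10 genes was not tested.

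Fat and peripheral nerve are other places where these enzymes are abundant. Of 10 adipocyte markers only Lipe and Plin4 were tested, with unadjusted edgeR p of 0.384 and 0.501, Lep and Retn were at 0 in every library, Adipoq had 1 count in 1 library, and the summed level was 22.5 and 21.4 CPM against 23.1 and 23.9 CPM. Of the Schwann cell markers 5 of 8 were tested and 1 was higher, Pmp22 at 0.24, where 14.3% of all tested genes were higher. The other 4 did not pass and lay between -0.67 and 0.68. Schwann cell markers summed to 195 and 191 CPM in Dor WT libraries against 223 and 225 CPM in those of Dor cKO. Pituitary markers summed to 125 and 124 CPM in Dor WT libraries against 20.2 and 20.3 CPM in those of Dor cKO, and all 6 tested were lower, with Chga, the most abundant, at -2.36 and Cga at 0 counts in both Dor cKO libraries. Skeletal muscle markers summed to 5.87 to 7.24 CPM with Myh4 at 0, and the 4 tested had unadjusted edgeR p of 0.268 to 0.804, the most abundant being Tnnt3 at 0.25. Of 6 blood markers 3 were lower, with Hbb-bs at -0.14 and sums of 596 and 622 against 568 and 573 CPM. Beside these pituitary and blood counts, 13.4% of all tested genes were lower. The part of the pituitary and blood values in the results was not tested.

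Across 17 alternative settings, Elovl6 and Elovl7 were called lower in all 17, with log2 fold changes of -0.63 to -0.55 and -0.83 to -0.70. Scd2 was called in 15 of them. Acly, Scd1 and Fads2 were called in 13, Fads1 in 11, Acaca in 9, Elovl5 in 5 and Fasn in 0, while the share of all tested genes called ranged from 7.47% to 30.7%. With a biological coefficient of variation of 0.1 in place of the estimated 0.03477, only Elovl6 and Elovl7 of the 10 genes were called, against 9.52% of all tested genes. The same 2 genes were called when the test asked for a change beyond 1.2-fold, which 7.47% of all genes passed. With limma on log2(TPM + 0.1) and log2(TPM + 1), Scd2 joined them, against 8.39% and 8.29% of all genes. A block on the replicate number called 29.7% of all genes and added Elovl5.

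**Figure D5:**
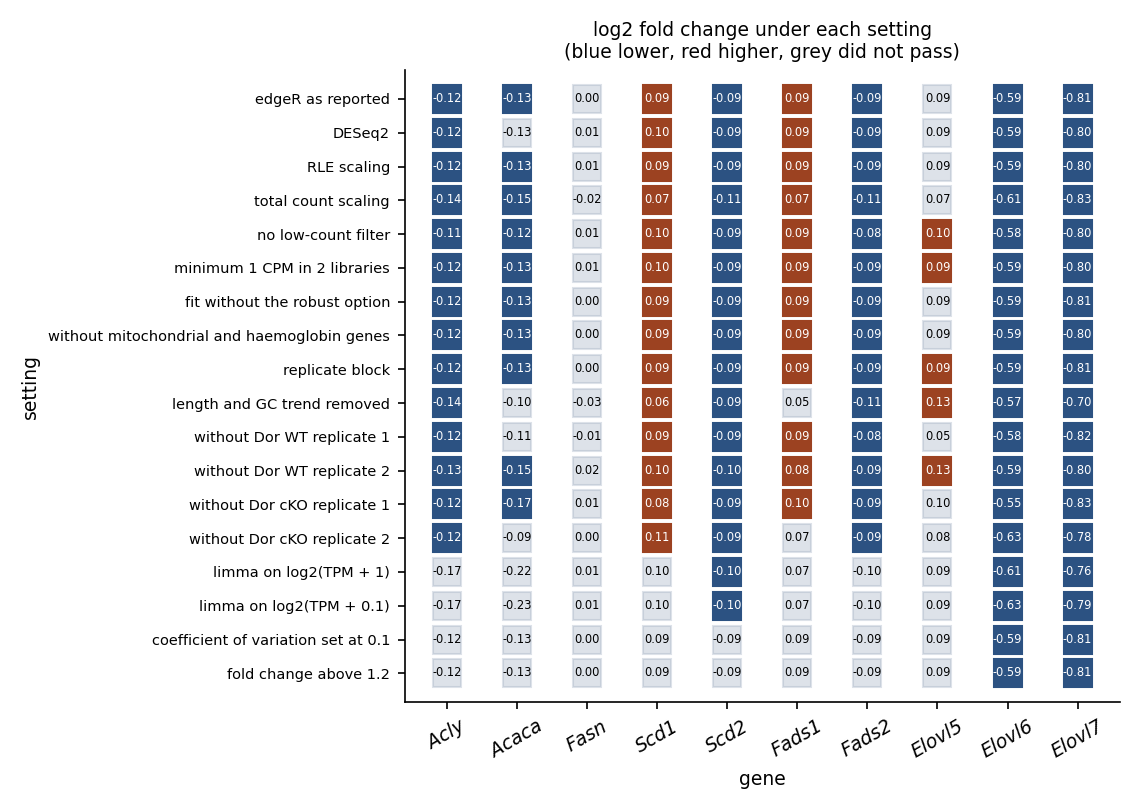
Log2 fold change of each of the 10 genes under the reported setting and 17 alternatives, as a grid of genes by settings with calls marked. The cells of Elovl6 and Elovl7 stay below -0.5 throughout, and those of the other 8 genes lie between -0.23 and 0.13.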

How the data were processed

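Per the labels' protocols, RNA extracted with TRIzol (2 µg) went into a stranded mRNA kit and was read as pairs of 150 bases on a NovaSeq instrument. Tools and build in the submitters' processing notes are RSEM 1.3.1, STAR 2.7.9a, Trimmomatic 0.36 and GRCm38. No source used here gives the annotation release or the strand setting, so antisense overlaps stay uncertain. The deposited files hold, per the file headers, an expected count and a TPM value per gene, made by the authors with RSEM, with effective length and the posterior SD of the count.

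Expected counts were rounded to whole numbers. Genes were filtered with filterByExpr (minimum count 10, minimum total 15), scaled by TMM and tested with edgeR 4.0.16 (R 4.3.3), a robust quasi-likelihood fit on group alone. P-values were adjusted by Benjamini-Hochberg over the 16751 genes tested, with calls at adjusted p under 0.05. A log2 fold change is Dor cKO minus Dor WT, and the SE is the size of the log2 fold change divided by the square root of F. Totals of 17263830 to 21595832 put a floor of 3 counts at 0.139 to 0.174 CPM. Identifiers were matched to symbols for 55141 of 55401 genes. Genes overlapping the 10 enzymes held at most 4 counts in any library.

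The 10 genes, the lists and the tests were chosen with earlier results of these data known. Named genes were the 10 enzymes, of each other list the 4 most abundant called genes (the 2 most abundant of all where fewer than 2 were called), of each marker list the most abundant gene and defining markers at 0, Trp53inp2, Scd3 and Scd4; others are said to be named after their values were seen. Not every gene selected this way is reported here. Alternatives were DESeq2 1.42.0, RLE or total-count scaling, other filters, a set coefficient of variation, a fold threshold, removal of a length and GC trend, a fit without the robust option, leaving out mitochondrial and haemoglobin genes, limma 3.58.1 on deposited TPM with a pseudocount of 1 or 0.1, a replicate block and leaving out each library. The steps were tested on simulated data.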

Additional observations from a re-analysis of the deposited data

How the results depend on the processing

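Limits: 2 libraries a group, close to each other, give a small error estimate, so small changes pass. With the coefficient of variation set at 0.1, calls over all genes went to 891 lower and 703 higher, of the 10 genes to 2 and 0, and of the other pathway lists to 5 and 2. With limma on log2(TPM + 0.1) they were 734 and 672, 3 and 0, and 8 and 7, and on log2(TPM + 1) they were 722 and 666, 3 and 0, and 7 and 7. Against a fold change of 1.2 the 10 genes gave 2 and 0. From the other pathway lists, Elovl4, Idh1, Mfsd2a, Fabp5 and Lpl stayed lower with the coefficient of variation at 0.1. Thrsp and Cpt1b stayed higher at that setting. Srebf1, Rxra and the remaining named genes of those lists were not called there. Calls over all genes with a library left out ranged from 1670 to 2073 lower and 1782 to 2184 higher, and those of the 10 genes from 5 to 6 lower and 1 to 3 higher. The ratio of Acaca to Acly then ranged from -0.13 to 0.012. Fasn turned to -0.031 with the length and GC trend removed and to -0.016 with total-count scaling, and ranged from -0.0085 to 0.018 with a library left out. Dbi turned to -0.017 under both limma settings. With a library left out Scd4 ranged from -0.28 to 0.78 and the muscle marker Tnnt3 from -0.010 to 0.61. The causes were not tested. Elovl5, not called in the reported test, was called in 5 alternatives, with the replicate block among them (adjusted p 0.0369).

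Replicate numbers are shared by the groups. Deviations of the replicate 1 libraries from their group means correlated at -0.0177 across the tested genes, so the numbers were not taken as pairs. With 2 libraries a group, the replicate 2 deviations mirror these and add no second value. The replicate block gave 2409 genes lower and 2562 higher, and 6 lower and 3 higher of the 10 genes.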

Other observations

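Genes of fatty acid oxidation, the opposing pathway, were tested as a separate list of 25. Of these 9 were higher and 1 was lower past the threshold, with a median log2 fold change of 0.06. Cpt1a, which makes the acylcarnitines that enter mitochondria, rose by 0.24 (SE 0.04, edgeR adjusted p = 5.67e-06). The acyl-CoA dehydrogenase genes Acadm and Acadvl rose by 0.27 (SE 0.05, edgeR adjusted p = 3.67e-05) and 0.18 (SE 0.05, edgeR adjusted p = 0.0043). Cpt1b, the muscle form of the carnitine transferase, was named after its values were seen and rose by 0.70 (SE 0.16, edgeR adjusted p = 0.0013). The shares of genes called over all tested genes were 14.3% higher and 13.4% lower.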
